A study of Mus musculus with 4 samples.

Results

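The abundant long RNA polymerase III transcripts 7SL, 7SK, the RNA of RNase P and the RNA of RNase MRP were followed in mouse RAW264.7 cells and in the extracellular vesicles that these cells release. Genes were taken by annotated symbol (Rn7s1 and Rn7s2 for 7SL, Rn7sk, Rpph1 and Rmrp), which gave 5 genes, of which 4 are among the 54265 genes with values here. No value of Rn7s2 was analysed here. It is identical in sequence to Rn7s1, so the values of Rn7s1 do not tell the 2 genes apart. RAW264.7 is an established macrophage-like mouse line. All 4 groups carried a doxycycline-induced short hairpin RNA and received doxycycline at 1 µg/mL, renewed each day, for 3 days and during a further 24 h in medium with vesicle-depleted serum. The groups were vesicles with the hairpin labelled shDis3l2, vesicles with the non-silencing hairpin labelled shNS, cells labelled shDis3l2 and cells labelled shNS, each with 1 library. Vesicles were purified from the 24 h medium by centrifugation and a sucrose gradient and their outside was digested for 30 min with micrococcal nuclease (20 U), a step the protocol gives for vesicles only. Nuclease treatment and compartment therefore cannot be told apart.

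7SL is the RNA scaffold of the signal recognition particle, which brings ribosomes making secreted and membrane proteins to the endoplasmic reticulum, and it is a known component of retroviral particles and extracellular vesicles. 7SK is a nuclear RNA that holds the transcription elongation factor P-TEFb in an inactive complex with HEXIM proteins. Rpph1 encodes the catalytic RNA of RNase P, which trims the 5′ leader of precursor tRNAs, and Rmrp the related RNA of RNase MRP, which takes part in processing of ribosomal RNA precursors. Dis3l2, the gene named by the hairpin, is a 3′-to-5′ exonuclease of the cytoplasm specific for uridylated RNAs, and 7SL and RMRP RNA are known targets of it.

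The genes lie apart in the genome (GRCm38, GENCODE M21 annotation). Rn7s1 and Rn7s2 both lie on chromosome 12, on the plus and the minus strand, and are 300 nt long and annotated as miscellaneous RNA. Rn7sk covers chr9:78175303-78175633 on the minus strand (331 nt, miscellaneous RNA). Rpph1 covers chr14:50807449-50807767 on the minus strand (319 nt, ribozyme). Rmrp covers chr4:43492783-43493063 on the minus strand as a transcript of 281 nt typed as a long intergenic RNA, and a 271-nt ribozyme-typed transcript inside it held 3.13 estimated counts in vesicles labelled shDis3l2 and 0 in the other 3 libraries. The 4 RNAs share no stretch longer than 10 nt with each other, and their GC content is 62.3% for Rn7s1, 58.0% for Rn7sk, 67.1% for Rpph1 and 63.7% for Rmrp. The reads are 50 nt long, so each count marks a fragment and not a full-length RNA.

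Counts of 7SL can be divided between Rn7s1 and shorter annotated features, typed as miRNA, that carry a stretch of the same RNA (positions counted from the 5′ end of Rn7s1). Gm47299, 80 nt long, lies over the 3′ end of Rn7s2, shares positions 224 to 300 and runs 3 bases past the annotated end of Rn7s2. Gm47304, 70 nt long, equals positions 143 to 212. Gm47294, 88 nt long, shares a longest exact run of 38 bases, positions 153 to 190.

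The sequences of 7SK and RNase P RNA are from the GENCODE M21 transcripts and are shown because their counts too can be divided between annotated features that carry the same bases. The first 300 nt of each are given (chr9:78175334-78175633 and chr14:50807468-50807767, both minus strand). For 7SK, capitals mark positions 1 to 241, the longest stretch shared with the copy Gm24447. For Rpph1, capitals mark positions 36 to 268, which are also an exon of a Ccnb1ip1 transcript of the same strand.
Rn7sk: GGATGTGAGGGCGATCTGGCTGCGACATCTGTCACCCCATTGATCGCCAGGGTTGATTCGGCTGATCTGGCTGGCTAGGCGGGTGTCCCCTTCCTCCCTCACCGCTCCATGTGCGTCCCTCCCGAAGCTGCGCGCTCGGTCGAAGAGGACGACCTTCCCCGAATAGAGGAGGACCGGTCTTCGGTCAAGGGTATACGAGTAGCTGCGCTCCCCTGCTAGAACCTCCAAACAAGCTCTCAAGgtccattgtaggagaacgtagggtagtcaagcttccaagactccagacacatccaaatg
Rpph1: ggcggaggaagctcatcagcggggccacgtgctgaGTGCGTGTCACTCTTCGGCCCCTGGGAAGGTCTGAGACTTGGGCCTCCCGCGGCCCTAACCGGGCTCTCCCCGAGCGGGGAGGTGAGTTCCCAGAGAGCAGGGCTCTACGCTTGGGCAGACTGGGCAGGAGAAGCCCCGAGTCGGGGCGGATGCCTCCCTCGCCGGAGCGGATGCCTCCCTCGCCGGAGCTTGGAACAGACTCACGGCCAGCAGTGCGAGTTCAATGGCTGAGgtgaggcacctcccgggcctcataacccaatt

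The libraries held 17612144 counts (vesicles labelled shDis3l2), 18189371 (vesicles labelled shNS), 18415986 (cells labelled shDis3l2) and 19740443 (cells labelled shNS). miRNA hairpins took 10.5% and 19.1% of counts in vesicles labelled shDis3l2 and shNS, against 61.2% and 68.3% in cells labelled shDis3l2 and shNS, so each RNA is given as counts per 1000000 (CPM) of all counts and as the same of counts outside miRNA hairpins (hairpin-free CPM). Dis3l2 itself had 13232 counts in cells labelled shDis3l2 and 42 in cells labelled shNS. In vesicles labelled shDis3l2 and shNS it had 1894 and 1713 counts. Whether these counts of small RNA reads reflect its messenger RNA was not tested. The labels are therefore used as names of libraries, and no direction between them is read as one of Dis3l2 loss. The 11 macrophage markers summed to 7165 and 14892 CPM in vesicles labelled shDis3l2 and shNS and to 43286 and 57114 CPM in cells labelled shDis3l2 and shNS, with Mir223 at 0 in all 4 libraries and Itgam at 0 in cells labelled shNS. Nearly all of these sums is the hairpin Mir142. At least 2-fold higher in vesicles were 7 of 9 measured macrophage markers with the label shDis3l2 and 5 of 7 with the label shNS. The same held for 77.0% and 74.8% of all genes. Scaled to counts outside miRNA hairpins it held for 3 of 9 and 3 of 7 of these markers, against 57.1% and 46.4% of genes. Those shares leave out hairpins, whereas the 9 and 7 markers include the hairpins Mir142 and Mir155, so the sets are not alike. On that scale Mir142 was at log2 -3.84 and -3.31 and Mir155 at -3.89 and -3.31 with the labels shDis3l2 and shNS. The 9 erythroid or serum markers summed to 43.0 and 57.5 CPM in vesicles labelled shDis3l2 and shNS, against 8.58 and 7.60 CPM in cells labelled shDis3l2 and shNS. Mir144 had 266 and 477 counts in those vesicles, against 0 and 5 counts in those cells, and Mir451a 157 and 376, against 3 and 4. Hbb-bs had 171 and 67 counts in those vesicles, against 5 and 4 in those cells, while Hba-a1 and Hbb-bt were at 0 in all 4 libraries. Mir122 had 163 and 125 counts in those vesicles, against 148 and 132 in those cells, where it was most of the sums. The part of RNA from such sources in the vesicle-to-cell comparisons was not tested. Marker sums of fibroblast, epithelial and lymphoid types were between 1.47 and 31.4 CPM. Intervals are exact 95% intervals of the counts. They cover counting error only, since each group is 1 library and it is not known whether reads were collapsed to molecules, and no p-value is given.

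Together the 4 RNAs made up 0.526% of all counts in vesicles labelled shDis3l2 (0.523 to 0.530) and 0.351% in vesicles labelled shNS (0.349 to 0.354), against 0.0407% in cells labelled shDis3l2 (0.0398 to 0.0416) and 0.0439% in cells labelled shNS (0.0430 to 0.0448). 7SL was the main part of that sum in each library. Rn7s1 held 89.2% of it in vesicles labelled shDis3l2 (89.0 to 89.4) and 87.0% in vesicles labelled shNS (86.7 to 87.2), against 61.1% and 67.3% in cells labelled shDis3l2 and shNS. Rmrp, which came next in cells, held 2.90% (2.79 to 3.01) and 5.47% (5.30 to 5.65) in those vesicles, against 20.5% (19.6 to 21.4) and 23.0% (22.1 to 23.9) in those cells.

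Rn7s1 had 82682 and 55574 counts in vesicles labelled shDis3l2 and shNS, against 4578 and 5828 counts in cells labelled shDis3l2 and shNS. These are 4695 and 3055 CPM in the vesicle libraries and 249 and 295 CPM in the cell libraries. Both vesicle libraries lay far above both cell libraries, and the label shDis3l2 had the higher level in vesicles and the lower level in cells. Outside miRNA hairpins the order was the same, with 5247 and 3777 hairpin-free CPM in vesicles labelled shDis3l2 and shNS and 641 and 931 hairpin-free CPM in cells labelled shDis3l2 and shNS.

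Rn7sk had 2865 and 2216 counts in vesicles labelled shDis3l2 and shNS, or 163 and 122 CPM, against 1159 and 577 counts in cells labelled shDis3l2 and shNS, or 62.9 and 29.2 CPM. The label shDis3l2 had the higher level in both compartments. Outside miRNA hairpins the cell library labelled shNS stood alone at the low end, with 92.2 hairpin-free CPM, against 162 hairpin-free CPM in cells labelled shDis3l2 and 182 and 151 hairpin-free CPM in vesicles labelled shDis3l2 and shNS.

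Rpph1 followed 7SL in shape at a much lower level. It had 4427 and 2625 counts in vesicles labelled shDis3l2 and shNS (251 and 144 CPM), against 218 and 266 counts in cells labelled shDis3l2 and shNS (11.8 and 13.5 CPM). The intervals of the cell libraries overlapped (10.3 to 13.5 CPM with the label shDis3l2 and 11.9 to 15.2 CPM with the label shNS), and those of the vesicle libraries did not (244 to 259 and 139 to 150 CPM).

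Rmrp varied least of the 4 RNAs over the libraries. It had 2686 and 3499 counts in vesicles labelled shDis3l2 and shNS (153 and 192 CPM), against 1536 and 1989 counts in cells labelled shDis3l2 and shNS (83.4 and 101 CPM). The label shDis3l2 had the lower level in both compartments. Outside miRNA hairpins the vesicle level was the lower one under each label, with 170 and 238 hairpin-free CPM in vesicles labelled shDis3l2 and shNS and 215 and 318 hairpin-free CPM in cells labelled shDis3l2 and shNS.

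**Figure D1:**
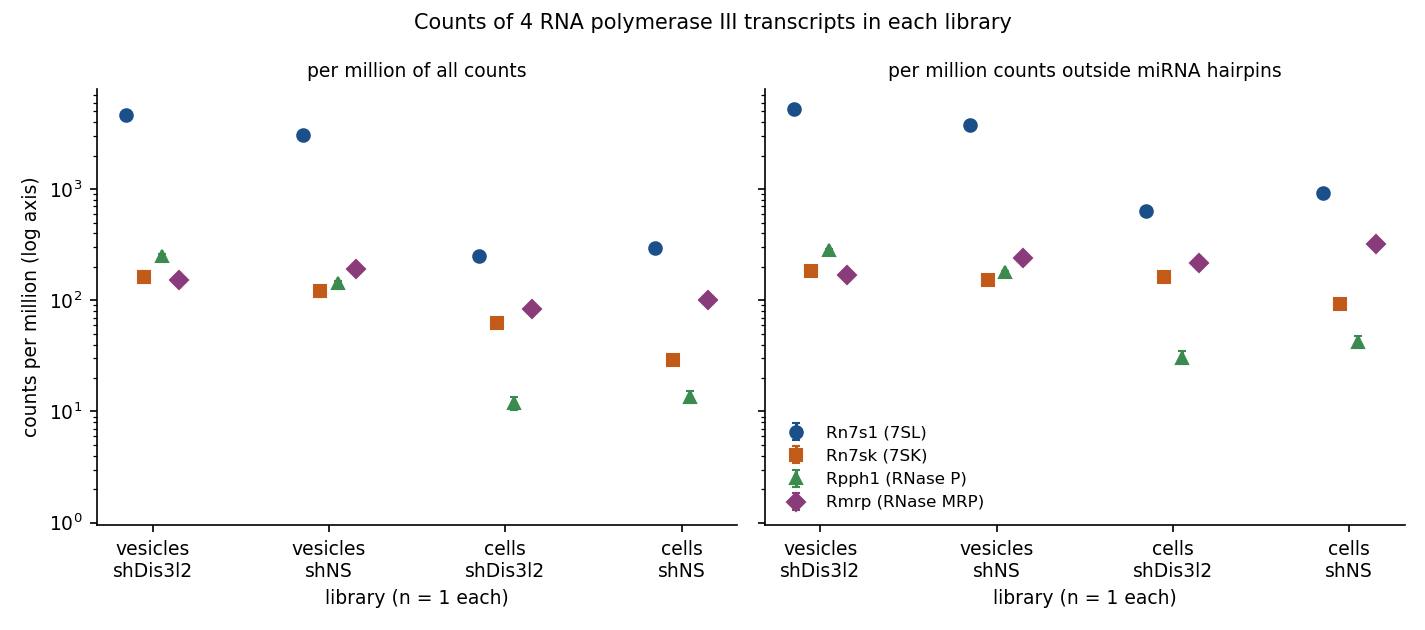
Level of each RNA in each library (x axis: the 4 libraries, n = 1 each; y axis: CPM on a log axis) over all counts and over counts outside miRNA hairpins, with 95% counting intervals. Rn7s1 and Rpph1 are far higher in both vesicle libraries on both scales, whereas Rmrp is higher in vesicles under each label only in the left plot, where 153 and 192 CPM stand against 83.4 and 101 CPM.

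The order of the levels per length (CPM per kb of transcript) put 7SL first in all 4 libraries and changed below it. In vesicles labelled shDis3l2, Rn7s1 at 15649 CPM per kb was followed by Rpph1 at 788, Rmrp at 543 and Rn7sk at 491. Vesicles labelled shNS had Rn7s1 at 10184 CPM per kb, Rmrp at 685, Rpph1 at 452 and Rn7sk at 368. In cells the order was Rn7s1, Rmrp, Rn7sk and Rpph1, at 829, 297, 190 and 37.1 CPM per kb with the label shDis3l2 and 984, 359, 88.3 and 42.2 CPM per kb with the label shNS. RNase P RNA was thus the lowest of the 4 in both cell libraries and, before copies were added, not in either vesicle library. No 2 neighbours in these orders had overlapping counting intervals, the closest being Rmrp (522 to 564) and Rn7sk (474 to 510) in vesicles labelled shDis3l2. With its copies, described further on, added to 7SK, that pair turned, with Rn7sk at 722 CPM per kb against Rmrp at 543. In vesicles labelled shNS, 7SK with copies was at 465, above Rpph1 at 452 and below Rpph1 with its own copies at 475. Of these 7SK sums, 27.5% and 20.8% lay on Gm26023, whose longest stretch shared with 7SK is 34 nt.

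The comparison of vesicles with cells asked how far each RNA is represented among the small RNA of vesicles. 7SL and RNase P RNA stood well above the typical gene in vesicles under both labels, and RNase MRP RNA stood below it. 7SK stood below it with the label shDis3l2, and with the label shNS its interval over all counts held the median of all genes. Outside miRNA hairpins that shNS interval (log2 0.58 to 0.84) lay below the median of 0.88. With copies added, over all counts, it also lay below (1.55 to 1.76 against 2.19). With the label shDis3l2, Rn7s1 was 18.9-fold higher in vesicles than in cells (95% interval 18.3 to 19.5), Rpph1 21.2-fold (18.5 to 24.4), Rn7sk 2.58-fold (2.41 to 2.77) and Rmrp 1.83-fold (1.72 to 1.95). With the label shNS, Rn7s1 was 10.3-fold higher in vesicles (10.1 to 10.6), Rpph1 10.7-fold (9.44 to 12.2), Rn7sk 4.17-fold (3.80 to 4.58) and Rmrp 1.91-fold (1.81 to 2.02).

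Under each label 3 of the 4 RNAs passed 2-fold upwards in vesicles with an interval that excludes equality, and 0 passed it downwards. The same held for 77.0% of the 7377 genes with at least 100 counts over the libraries labelled shDis3l2 and for 74.8% of 6857 genes with the label shNS, so the count of 3 is near the background. The median log2 ratio of the 4 RNAs was 2.80 with the label shDis3l2 and 2.71 with the label shNS, beside 2.42 and 2.19 over all genes. Relative to that median, Rn7s1 was at 1.82 and 1.18, Rpph1 at 1.99 and 1.23, Rn7sk at -1.05 and -0.13, and Rmrp at -1.55 and -1.26 on the log2 scale, with the label shDis3l2 first in each pair. Because the values are shares of a library, more of an RNA and less of the others cannot be told apart.

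Scaling to counts outside miRNA hairpins moved every vesicle-to-cell ratio by -1.21 (shDis3l2) and -1.35 (shNS) on the log2 scale. 7SL and RNase P RNA were still at least 2-fold higher in vesicles, Rn7s1 by 8.19-fold and Rpph1 by 9.18-fold with the label shDis3l2, and by 4.06-fold and 4.19-fold with the label shNS. On this scale 2 of the 4 RNAs were thus at least 2-fold higher under each label, against 57.1% of genes with the label shDis3l2 and 46.4% with the label shNS. 7SK was at log2 ratios of 0.16 and 0.71, and RNase MRP RNA was lower in vesicles, at -0.34 (-0.43 to -0.24) with the label shDis3l2 and -0.42 (-0.50 to -0.34) with the label shNS. The distance between Rn7s1 and Rpph1 was within counting error under both labels, at -0.17 (-0.37 to 0.03) and -0.05 (-0.23 to 0.14) on the log2 scale for Rn7s1 minus Rpph1 with the labels shDis3l2 and shNS. Rn7s1 was ahead of Rmrp by 3.37 (3.27 to 3.47) and 2.44 (2.35 to 2.53), a distance between RNAs that no scaling of the libraries can alter.

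**Figure D2:**
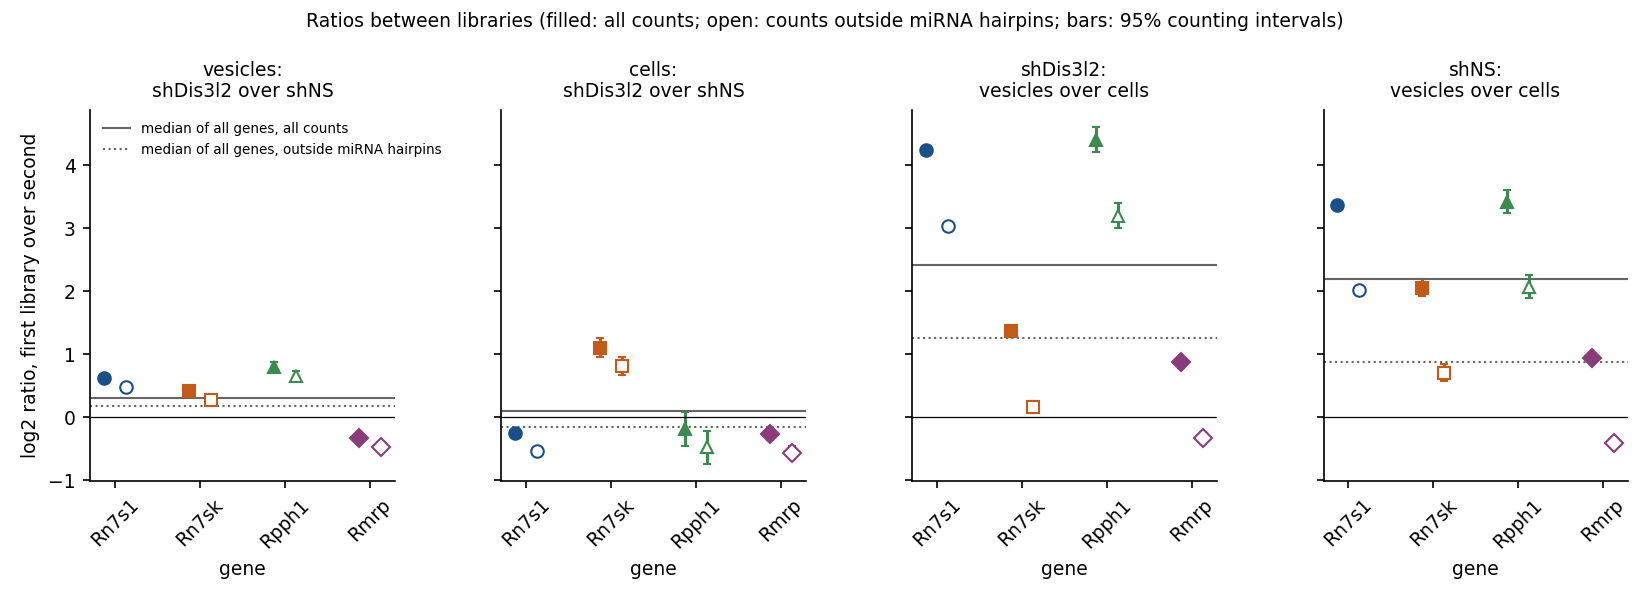
Log2 ratio of each RNA (x axis) in 4 comparisons of libraries (y axis: first library over second), over all counts (filled) and outside miRNA hairpins (open), with 95% counting intervals; grey lines are the medians of all genes. Rn7s1 and Rpph1 lie above the median in both vesicle-to-cell comparisons, and Rn7sk is the RNA set apart between the labels in cells, at 1.11.

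The comparison of the labels in vesicles asked whether the RNAs differ between vesicles of cells with each hairpin. 7SL, 7SK and RNase P RNA were higher in the vesicle library labelled shDis3l2 than in the one labelled shNS, RNase MRP RNA was lower, and none of these differences reached 2-fold. Rn7s1 was 1.54-fold higher (1.52 to 1.55), Rn7sk 1.34-fold (1.26 to 1.41) and Rpph1 1.74-fold (1.66 to 1.83), and Rmrp was 1.26-fold lower (1.20 to 1.33). Of the 4 RNAs 0 passed 2-fold upwards and 0 downwards, against 10.4% and 2.52% of 8452 genes. Their median log2 ratio was 0.52, beside 0.31 over all genes. Outside miRNA hairpins the log2 ratios were 0.47 for Rn7s1, 0.27 for Rn7sk, 0.65 for Rpph1 and -0.48 for Rmrp, again with 0 of 4 past 2-fold in either direction, against 8.62% of genes higher and 2.74% lower.

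In cells the labels set 7SK apart. Rn7sk was 2.15-fold higher in the cell library labelled shDis3l2 than in the one labelled shNS (1.95 to 2.38), whereas Rn7s1 was 1.19-fold lower (1.14 to 1.23) and Rmrp 1.21-fold lower (1.13 to 1.29). For Rpph1 the log2 ratio was -0.19 with an interval that holds 0 (-0.45 to 0.08). So 1 of the 4 RNAs passed 2-fold upwards and 0 downwards, against 13.8% and 4.97% of 3399 genes, and Rn7sk was at rank 392 from the highest. The median log2 ratio of the 4 RNAs was -0.22, beside 0.10 over all genes. Rn7sk was above Rn7s1 by 1.35 (1.20 to 1.51), above Rpph1 by 1.29 (1.00 to 1.59) and above Rmrp by 1.38 (1.21 to 1.55) in log2 ratio, and the other 3 RNAs did not differ from each other beyond counting error.

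The 2-fold mark for 7SK in cells depended on how the values were scaled and summed. Outside miRNA hairpins Rn7sk was 1.76-fold higher with the label shDis3l2 (1.59 to 1.95), and 0 of the 4 RNAs were at least 2-fold apart, against 9.55% of 3193 genes higher and 9.4% lower. On that scale Rn7s1 had a log2 ratio of -0.54, Rpph1 -0.48 and Rmrp -0.56, beside a median of -0.16 over all genes. With the copies of 7SK added to it, the ratio over all counts was 1.90-fold.

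Between the compartments, the label ratio of 7SL and of RNase P RNA was higher in vesicles than in cells. Subtracting the cell log2 ratio from the vesicle one gave 0.87 for Rn7s1 (0.81 to 0.93) and 0.99 for Rpph1 (0.72 to 1.25), against -0.69 for Rn7sk (-0.85 to -0.52) and -0.06 for Rmrp (-0.18 to 0.06). None of the 4 passed 2-fold over all counts, where 12.0% of 2634 genes did so upwards and 14.4% downwards. Outside miRNA hairpins Rn7s1 was at 1.01 and Rpph1 at 1.13, so 2 of 4 passed 2-fold upwards, against 16.8% of 2468 genes. No replicate bears on these differences.

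A large part of the 7SL signal was counted on short windows of the RNA rather than on Rn7s1, and the split differed between vesicles and cells. Gm47299, which carries the last 77 bases of 7SL, had 45672 and 39308 counts in vesicles labelled shDis3l2 and shNS, against 1842 and 2282 counts in cells labelled shDis3l2 and shNS. It was 25.9-fold higher in vesicles than in cells with the label shDis3l2 and 18.7-fold with the label shNS, more than Rn7s1 in both. For each count on Rn7s1 there were 0.552 and 0.707 counts on Gm47299 in vesicles labelled shDis3l2 and shNS, against 0.402 and 0.392 in cells labelled shDis3l2 and shNS. That ratio was 1.37-fold higher in vesicles with the label shDis3l2 (log2 0.46, 0.38 to 0.54) and 1.81-fold higher with the label shNS (0.85, 0.78 to 0.93). In cells the labels did not differ in it beyond counting error (0.04, -0.07 to 0.14), and in vesicles it was 1.28-fold lower with the label shDis3l2 (-0.36, -0.38 to -0.33).

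The windows in the middle of 7SL differed from each other. Gm47304, positions 143 to 212, had 8068 and 4451 counts in vesicles labelled shDis3l2 and shNS, against 471 and 843 counts in cells labelled shDis3l2 and shNS, and its share of all 7SL-like counts lay between 4.46% and 7.10% in every library. Gm47294 lies within a longer 7SL copy, Gm23153, on the same strand of chromosome 1. Its longest exact match to 7SL, 38 bases, falls inside the window of Gm47304. Gm47294 was lower in vesicles, the opposite of Rn7s1. It had 0 and 503 counts in vesicles labelled shDis3l2 and shNS, against 879 and 2885 counts in cells labelled shDis3l2 and shNS. It was 5.28-fold lower in vesicles than in cells with the label shNS, and in cells 3.06-fold lower with the label shDis3l2 than with shNS. With 3 counts per library as the floor, it was at least 162-fold lower in vesicles labelled shDis3l2 than in vesicles labelled shNS. Against cells labelled shDis3l2 it was at least 280-fold lower there. These bounds cover counting error only and not how counts were divided between features that share sequence. Gm47295, a further window at the 3′ end of Rn7s1 itself, had 0 counts in all 4 libraries.

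Summed over Rn7s1 and all features of at most 400 nt that share at least 30 nt in a row with it, 7SL sequence had 136488 and 99862 counts in vesicles labelled shDis3l2 and shNS, against 7798 and 11866 counts in cells labelled shDis3l2 and shNS. Vesicles were 18.3-fold above cells with the label shDis3l2 and 9.13-fold above with the label shNS, beside 18.9-fold and 10.3-fold for Rn7s1 alone. Rn7s1 held 60.6% (60.3 to 60.8) and 55.7% (55.3 to 56.0) of that sum in vesicles labelled shDis3l2 and shNS, against 58.7% (57.6 to 59.8) and 49.1% (48.2 to 50.0) in cells labelled shDis3l2 and shNS. Between the labels the summed 7SL was 1.41-fold higher with shDis3l2 in vesicles and 1.42-fold lower with shDis3l2 in cells. The cell value and that of the label shNS rest in part on Gm47294: with Gm47299, Gm47295 and Gm47304 alone added to Rn7s1, the label shDis3l2 was 1.21-fold lower in cells, and vesicles were 20.7-fold and 12.0-fold above cells with the labels shDis3l2 and shNS. The authors' assignment of reads to near-identical features is not described in the sources used here, so the split between them is uncertain.

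**Figure D3:**
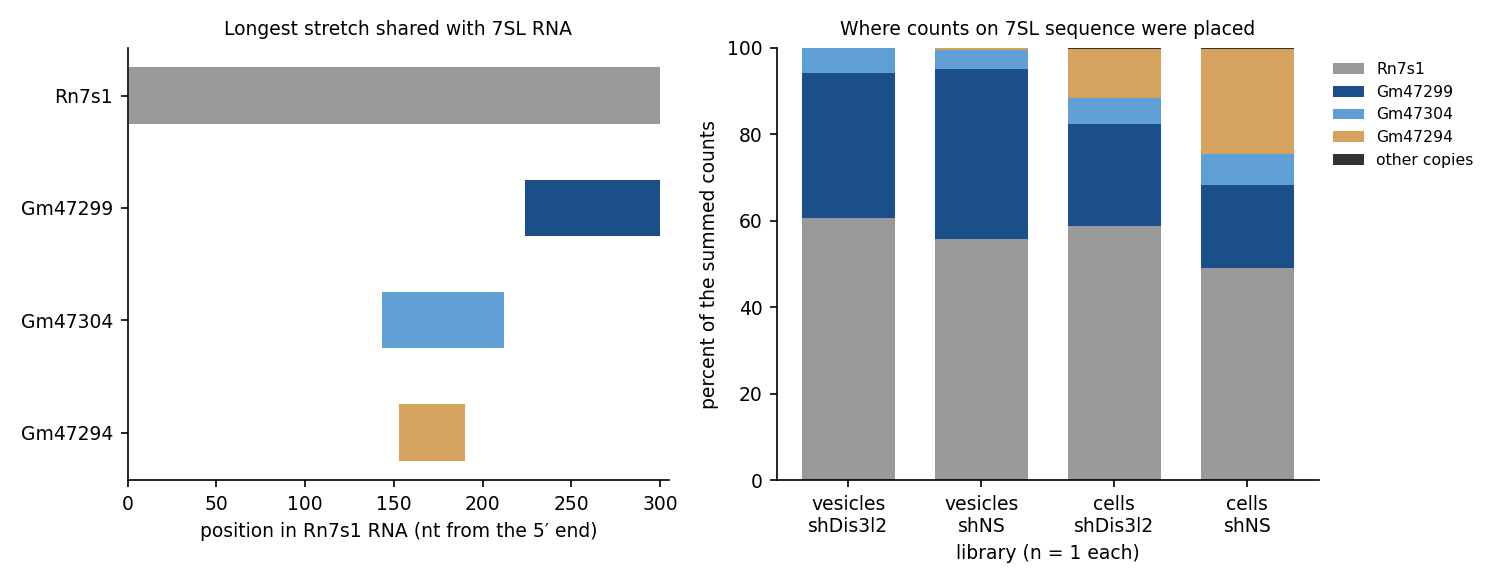
Left, the stretch of 7SL (x axis: position in nt from the 5′ end of Rn7s1) shared with 3 annotated windows; right, percent of the summed 7SL-like counts on each feature (y axis) in each library (x axis, n = 1 each). Gm47299, at the 3′ end, holds 33.5% and 39.4% in the vesicle libraries and 23.6% and 19.2% in the cell libraries, and Gm47294 is seen mainly in cells.

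7SK counts were also divided, with different copies in each compartment. Gm24447 (chr15:93234363-93234700, plus strand), which shares positions 1 to 241 of 7SK, had 173 and 0 counts in vesicles labelled shDis3l2 and shNS, against 548 and 387 counts in cells labelled shDis3l2 and shNS. Gm26023 (chr16:81261703-81262015, minus strand), which shares positions 212 to 245, had 1157 and 583 counts in vesicles labelled shDis3l2 and shNS, against 3 and 0 counts in cells labelled shDis3l2 and shNS. The first was thus mainly a feature of the cell libraries and the second of the vesicle libraries. With these and the other copies, of which 16 of 30 had any count, 7SK sequence had 4208 and 2800 counts in vesicles labelled shDis3l2 and shNS, against 1715 and 967 counts in cells labelled shDis3l2 and shNS. Vesicles were then 2.57-fold above cells with the label shDis3l2 and 3.14-fold above with the label shNS. The vesicle sums rest in part on Gm26023, whose longest stretch shared with 7SK is 34 nt of its 313 nt. Whether the counts on Gm26023 come from 7SK was not tested.

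**Figure D4:**
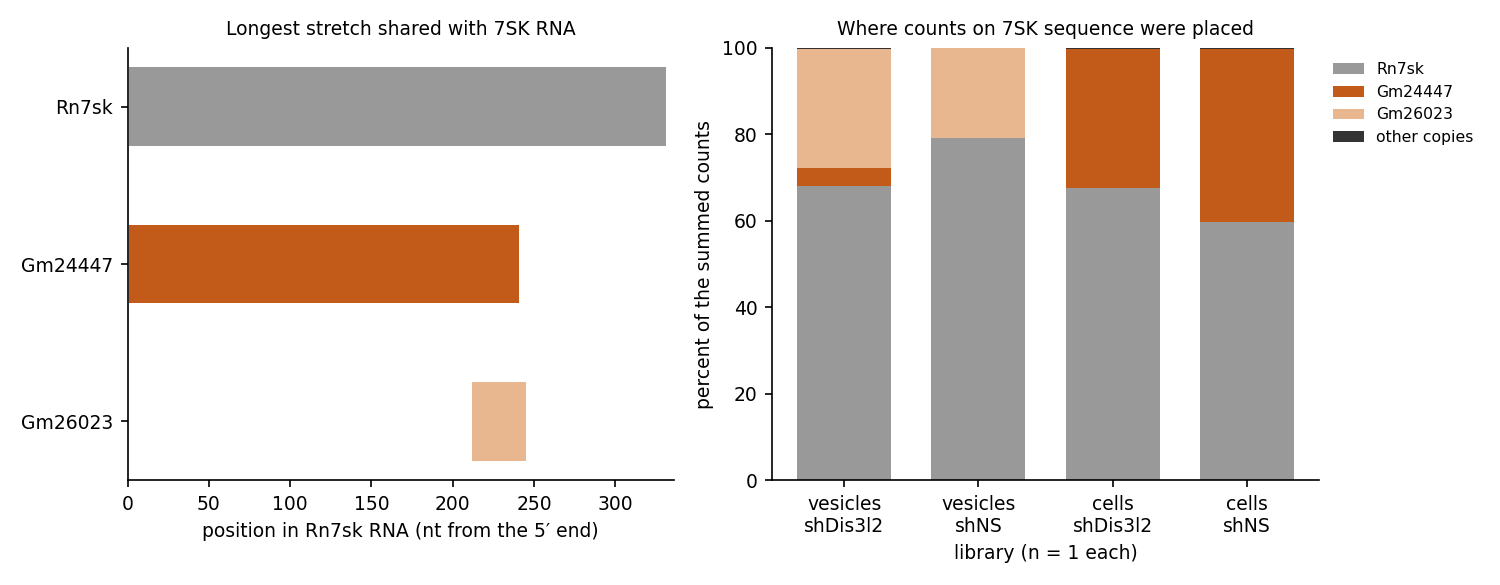
Left, the stretch of 7SK (x axis: position in nt from the 5′ end of Rn7sk) shared with 2 copies; right, percent of the summed 7SK-like counts on each feature (y axis) in each library (x axis, n = 1 each). Gm24447 holds 32.0% and 40.0% in the cell libraries labelled shDis3l2 and shNS, and Gm26023 holds 27.5% and 20.8% in the vesicle libraries labelled shDis3l2 and shNS.

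Rpph1 shares 233 nt with the Ccnb1ip1 transcript marked above, which had 1666 and 1164 counts in vesicles labelled shDis3l2 and shNS, against 138 and 210 counts in cells labelled shDis3l2 and shNS. Added to Rpph1, it left vesicles 17.9-fold above cells with the label shDis3l2 and 8.63-fold above with the label shNS. A copy named Rprl3 had 265 and 130 counts in vesicles labelled shDis3l2 and shNS, against 37 and 18 counts in cells labelled shDis3l2 and shNS. No transcript of another gene shares 30 nt in a row with Rmrp. An antisense Ccdc107 transcript overlaps 124 nt of Rmrp and held at most 5.80 estimated counts in a library.

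Set beside other short noncoding RNAs, the vesicle-to-cell ratios of 7SL and RNase P RNA were near those of vault RNA and 5S rRNA, which RNA polymerase III also makes, and above those of all 7 measured small nuclear and nucleolar RNAs made by RNA polymerase II. Of the 10 further Pol III RNAs listed, 5 had values (2 Y RNAs, a vault RNA, 5S rRNA and Bc1), and 4 of 4 measured RNAs were at least 2-fold higher in vesicles with the label shDis3l2 and 4 of 5 with the label shNS, against 77.0% and 74.8% of all genes. Outside miRNA hairpins the counts were 3 of 4, with Rny3 at 0.50, and 4 of 5, against 57.1% and 46.4% of all genes. The exception with the label shNS was Bc1, with 43 counts in vesicles and 67 in cells. Its log2 ratio was -0.52 (-1.11 to 0.05) over all counts and -1.87 (-2.46 to -1.30) outside miRNA hairpins. Vaultrc5, a vault RNA, had log2 ratios of 3.70 and 4.18 with the labels shDis3l2 and shNS, and the 5S rRNA gene n-R5s102 had 3.94 and 3.88. Rny1 was at 2.24 and 2.36 and Rny3 at 1.71 and 3.71, both Y RNAs that bind the Ro protein. Of the Pol II RNAs, 0 of 7 passed 2-fold upwards and 6 downwards in vesicles with the label shDis3l2. With the label shNS, 1 of 7 passed it upwards and 3 downwards. Over all genes, 12.9% and 13.5% passed it downwards with the labels shDis3l2 and shNS. Rnu12, the minor spliceosome U12 RNA, was at -5.75 and -1.84, and Rnu3a, a copy of the nucleolar U3 RNA, at -4.54 and -2.48. Outside miRNA hairpins 0 of 7 passed 2-fold upwards under either label, and 7 downwards with the label shDis3l2 and 4 with the label shNS. There 15.9% and 17.9% of all genes passed it downwards. That scale turns Rnu1a1 (U1), Rnu5g (U5) and Rnu7 (U7) to lower in vesicles with the label shNS. With the label shDis3l2 all 4 RNAs described here had higher vesicle-to-cell ratios than each of the 7 Pol II RNAs. With the label shNS, Rmrp at 0.93 was below Rnu11 (U11) at 1.67 and above the other 6.

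**Figure D5:**
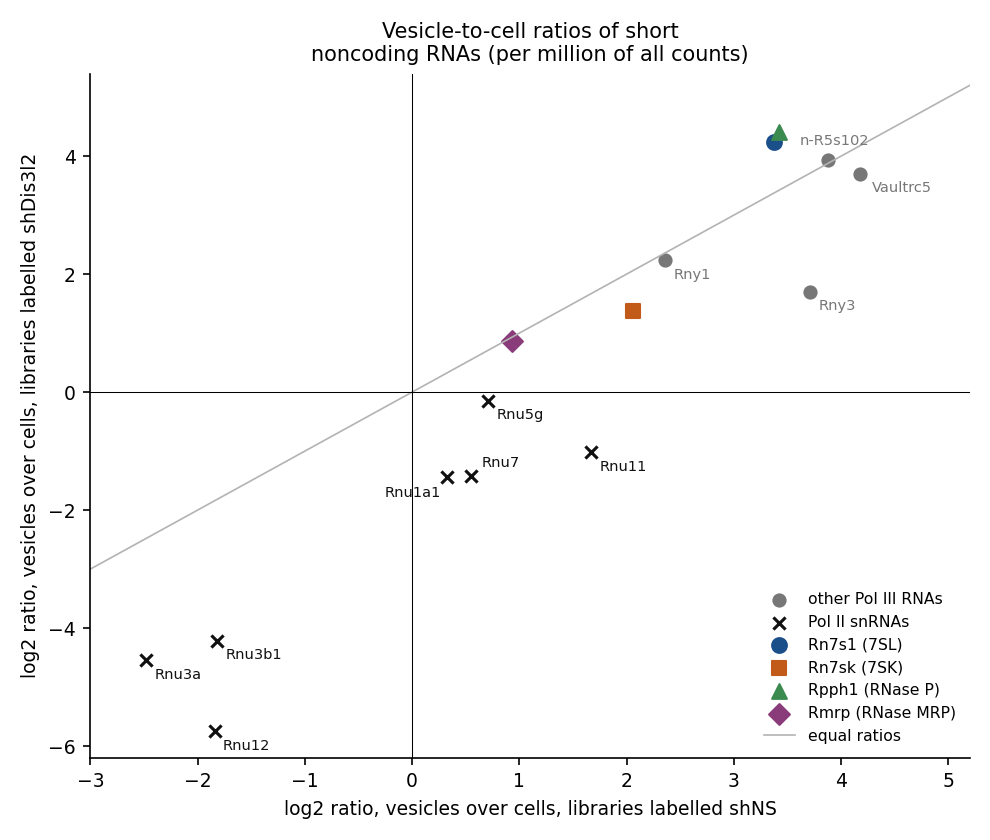
Log2 vesicle-to-cell ratio over all counts with the label shDis3l2 (y axis) and the label shNS (x axis) for the 4 RNAs, further Pol III RNAs and Pol II small nuclear RNAs; the line marks equal ratios. Rn7s1 at 4.24 and 3.37 and Rpph1 at 4.41 and 3.42 lie above the line among the Pol III RNAs, and Rmrp lies on it. Bc1, which was not measured in this comparison with the label shDis3l2, is not shown.

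Between the labels in cells, 5 of the 7 Pol II RNAs and 1 of the 4 measured Pol III RNAs were at least 2-fold higher in the library labelled shDis3l2, against 13.8% of all genes. Rnu12 was 8.84-fold, Rnu11 5.11-fold, Rnu3b1 (U3) 3.93-fold and Rny3 4.41-fold higher. Rny1, Vaultrc5 and n-R5s102 stayed within 2-fold, at log2 ratios of -0.18, 0.27 and 0.39. In vesicles, 0 of 5 Pol III RNAs and 0 of 7 Pol II RNAs were at least 2-fold higher with the label shDis3l2, and Rnu7 was 2.92-fold lower. Over all genes, 10.4% were at least 2-fold higher there and 2.52% lower. The rodent Pol III RNA 4.5S, picked after its values were seen, had 20690 and 6831 counts in vesicles labelled shDis3l2 and shNS, against 2372 and 3455 counts in cells labelled shDis3l2 and shNS. It was 3.13-fold higher with the label shDis3l2 in vesicles and 1.36-fold lower in cells, the same signs as Rn7s1. Rpph1 had these signs too, but its interval in cells holds 0. Unlike Rn7s1 and Rpph1, 4.5S with the label shNS turned to lower in vesicles than in cells outside miRNA hairpins. Its log2 ratio there was -0.25, beside 1.10 over all counts.

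Messenger RNA fragments of the protein partners were few and are described as counts on each gene. Of 10 genes for signal recognition particle proteins and the particle's receptor, 8 had at least 100 counts over the vesicle libraries and 1 over the cell libraries. Of these, 0 differed 2-fold between the labels in either. Over all genes, 10.4% were higher and 2.52% lower with the label shDis3l2 in vesicles, and 13.8% and 4.97% in cells. Srp72, which binds 7SL together with Srp68, had 175 and 123 counts in vesicles labelled shDis3l2 and shNS, against 636 and 917 counts in cells labelled shDis3l2 and shNS. It was 3.47-fold lower in vesicles than in cells with the label shDis3l2 and 6.85-fold lower with the label shNS. Srp72 was the exception in its list: 4 of 5 measured genes with the label shDis3l2 and 3 of 4 with the label shNS were at least 2-fold higher in vesicles, as Rn7s1 was, against 77.0% and 74.8% of all genes. Outside miRNA hairpins these counts were 3 of 5 and 3 of 4, against 57.1% and 46.4% of all genes. Srpr, the receptor subunit, was 6.93-fold and 7.91-fold higher in vesicles with the labels shDis3l2 and shNS.

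For 7SK, all 5 measured genes of its complex and of P-TEFb were at least 2-fold higher in vesicles with the label shDis3l2 and 4 of 5 with the label shNS, near the 77.0% and 74.8% of all genes. Outside miRNA hairpins it was 4 of 5 under each label, against 57.1% and 46.4% of all genes with the labels shDis3l2 and shNS. Ccnt2 was at 0.28 there with the label shDis3l2. Mepce, which caps 7SK, had 386 and 197 counts in vesicles labelled shDis3l2 and shNS, a 2.02-fold difference, and was the 1 gene of 5 to reach 2-fold between the labels in vesicles, where 10.4% of all genes did. Outside miRNA hairpins Mepce was at 0.87 in log2 ratio, and 0 of 5 reached 2-fold, against 8.62% of all genes higher and 2.74% lower. None of the 3 genes measured in cells reached 2-fold between the labels there, where 13.8% of all genes were higher and 4.97% lower. Ccnt1, the cyclin T1 subunit of P-TEFb, was at -0.58, Ccnt2 at -0.26 and Hexim1, which inhibits P-TEFb on 7SK, at -0.16. The intervals of Ccnt2 (-0.86 to 0.32) and Hexim1 (-0.62 to 0.30) hold 0, that of Ccnt1 (-0.99 to -0.19) does not, and Rn7sk was at 1.11.

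Of 12 genes for RNase P and RNase MRP proteins, 4 were measured in vesicles and none in cells. Pop1, the largest protein shared by both enzymes, had 309 and 133 counts in vesicles labelled shDis3l2 and shNS. It was 2.39-fold higher with the label shDis3l2, the 1 gene of 4, against 10.4% of all genes. Of 25 genes for RNA polymerase III and its factors, 17 were measured in vesicles, where 0 reached 2-fold between the labels. There 10.4% of all genes were higher and 2.52% lower. In cells 4 were measured and 1 was higher, against 13.8% of all genes. That gene was Snapc3, a subunit of the complex that binds the promoters of the 7SK, RNase P and RNase MRP genes. It had 2231 and 1655 counts in vesicles labelled shDis3l2 and shNS, against 15804 and 44 counts in cells labelled shDis3l2 and shNS, a 381-fold difference in cells. Dis3l2 differed alike, by 334-fold, and the origin of both differences is uncertain and was not tested. Brf1, which recruits the polymerase to tRNA genes, was at 0.35 in log2 ratio between the labels in cells.

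The genes that bind, tail or degrade the 3′ ends of such RNAs were described as well. Of 22 listed, 16 had values, of which 13 were measured in vesicles and 5 in cells. Tent4a, a poly(A) polymerase, was 2.13-fold higher in vesicles labelled shDis3l2, the 1 gene of 13, against 10.4% of all genes. Dis3l2 was the 1 gene of 5 past 2-fold in cells, where 13.8% of all genes were higher. Among 12 sensors of structured RNA, of which 8 were measured in vesicles and 1 in cells, Dhx58 and Oasl1 were at least 2-fold higher in vesicles labelled shDis3l2, at log2 ratios of 1.20 and 1.04, against 10.4% of all genes. Ifit1, which binds RNA with an uncapped 5′ end and is induced by interferon, had 244 and 123 counts in cells labelled shDis3l2 and shNS and was 2.12-fold higher with the label shDis3l2. Outside miRNA hairpins Tent4a was at 0.95, Oasl1 at 0.89 and Ifit1 at 0.80, all under 2-fold, and Dhx58 was at 1.05.

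The genes whose pattern over the 4 libraries was nearest to each RNA were sought among 982 genes with at least 100 counts in every library, by the distance between centred log2 CPM values. Nearest to Rn7s1 were Ptar1 (0.16), Gm15280 (0.17) and BC005537 (0.20), and Rpph1 was as near as these at 0.17. For Rpph1 the list was Gm15280 (0.22), Zfp799 (0.22) and Dppa2 (0.25). Nearest to Rn7sk were 2510009E07Rik (0.15), Hnrnpa2b1 (0.20) and Trio (0.30), and nearest to Rmrp were Sspo (0.13), the proline tRNA Mus_musculus_tRNA-Pro-TGG-1-1 (0.21) and Fam160a2 (0.22). Rn7sk and Rmrp lay 1.38 apart, and they lay 2.30 and 2.98 from Rn7s1. The distances rest on 4 libraries and carry no test.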

How the data were processed

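Per the labels' protocols, the QIAseq miRNA kit was used for library preparation, with reads of 50 nt. Per the submitters' processing notes, cutadapt, Salmon and Novoalign were used with the builds GRCm38 and mm10; no version or parameter of theirs is stated in the sources used here. The deposited table holds the authors' estimated counts for 141239 features in 4 libraries, of which 6.56% of the values above 0 are whole within 0.001. They were rounded to whole numbers first. Features were named from GENCODE M21 and transcripts summed by symbol, with features typed as miRNA kept apart; 1201 unnamed Ensembl transcripts (at most 0.134% of a library) entered totals only.

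Log2 ratios of CPM used a pseudocount of 0.5, and exact conditional (Clopper-Pearson) 95% intervals were computed with scipy 1.17.1. A gene counts as tested with at least 100 counts over the 2 libraries compared, and as higher or lower when it passes 2-fold with an interval that leaves out a ratio of 1. Intervals of differences between log2 ratios use the normal approximation to counting error. Labels such as shDis3l2 and shNS name libraries, and with 1 library per group no p-value was computed. Genes outside the 5 symbols were named by rule: at most the 3 largest ratios past 2-fold in each direction per list and comparison, any measured RNA of the 2 lists of other noncoding RNAs, and the 3 nearest patterns. Genes named with smaller ratios, and 4.5S, were chosen after their values were seen. The 5 genes and the lists were chosen with earlier results of these data known. Alternatives were scaling to counts outside miRNA hairpins or outside hairpins and tRNAs, edgeR 4.0.16 TMM factors, DESeq2 1.42.0 size factors, leaving out the 10 most abundant features, count minimums of 10 and 1000, a pseudocount of 5, and adding copies. The ratio and call steps were tested on simulated counts. No value of Rn7s2 was analysed here, and the sequences of the 7SL features are not reported here.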

Additional observations from a re-analysis of the deposited data

Results flagged for a closer look

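The label ratios of Rn7s1 and Rpph1 had opposite signs in vesicles and cells, with 1 library on each side, and the difference was not tested against replicates. For Rn7s1, the log2 ratio of shDis3l2 over shNS was 0.62 in vesicles and -0.25 in cells, a difference of 0.87. For Rpph1 it was 0.80 in vesicles and -0.19 in cells, a difference of 0.99, although the counting interval of the cell ratio holds 0.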

How the results depend on the processing

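Over all counts the median log2 ratio of the 4 RNAs was -0.22 in cells and 0.52 in vesicles between the labels, 2.80 and 2.71 between vesicles and cells with the labels shDis3l2 and shNS, and 0.40 for the difference of label ratios. In the same order it was -0.51, 0.37, 1.60, 1.36 and 0.55 outside miRNA hairpins. Leaving out only hairpins with a Mir symbol, added after seeing the data, gave the same 5 values to 2 decimals. Outside hairpins and tRNAs the first 4 were -0.50, 0.17, 2.12 and 2.10. TMM factors gave 0.26 between the labels in vesicles, 1.60 and 1.72 between vesicles and cells, and 0.19 for the difference. DESeq2 size factors gave 0.32, 1.56 and 1.61 for the first 3 of these, and leaving out the 10 most abundant features gave 0.38, 2.60 and 2.61.

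The 1 RNA at least 2-fold higher in cells labelled shDis3l2, Rn7sk, became 0 on the 3 scales that leave out hairpins and with copies added. Adding copies gave a median of 2.42 between vesicles and cells with the label shNS. Adding the Ccnb1ip1 transcript to Rpph1 gave 2.58 there, and adding Gm47299, Gm47295 and Gm47304 to Rn7s1 gave 0.46 between the labels in vesicles; both were added after seeing the data. A count minimum of 1000 left 3 RNAs and turned the median difference of label ratios to -0.062, because Rpph1 dropped out.

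Rmrp turned to lower in vesicles outside miRNA hairpins (-0.34 and -0.42 with the labels shDis3l2 and shNS; the same to 2 decimals with the Mir symbol rule), with TMM factors (-0.33 and -0.060) and with DESeq2 size factors (-0.38 and -0.18). Its difference of label ratios turned to 0.083 outside miRNA hairpins and 0.082 with the Mir symbol rule. The cause was not tested. Of the other values for the 4 RNAs, none changed sign.

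Over all genes, the count minimum moved the number at least 2-fold higher in cells labelled shDis3l2 to 2228 at 10 and 136 at 1000, against 469 at 100, and the number lower to 1705 and 27, against 169. Between the labels in vesicles the same minimums gave 2322 and 376 higher, against 883, and 1009 and 71 lower, against 213. Between vesicles and cells they gave 11115 and 887 higher, against 5677, and 2668 and 420 lower, against 955, with the label shDis3l2, and 10390 and 621 higher, against 5127, and 2834 and 362 lower, against 926, with the label shNS. With hairpins kept among the genes, the number lower in cells labelled shDis3l2 was 335 outside miRNA hairpins, 334 with the Mir symbol rule and 326 outside hairpins and tRNAs, against 169. In vesicles the last scale gave 551 higher and 449 lower, TMM 375 lower and DESeq2 333 lower, against 883 and 213. Scaling outside miRNA hairpins gave 3106 higher in vesicles with the label shNS, 3104 with the Mir symbol rule, against 5127.

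The alternative that sums Rn7s1 and Rn7s2 was not run, since no value of Rn7s2 was analysed here. No paired analysis was possible because the groups compared share fewer than 2 replicate numbers. A fit of label and compartment together, with their interaction as the only error, was not run. At these depths 3 counts correspond to less than 1 CPM in every library, while Rpph1 rests on 218 and 266 counts in cells labelled shDis3l2 and shNS.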
